A study of Mus musculus with 6 samples.

Results

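The mitochondrial carriers of the SLC25 family were examined in the leukemic myeloid cells of Mll-AF9 mice labelled Rpl22+/+ or Rpl22-/-. Members were the protein-coding genes whose symbol starts with Slc25a, with Slc25a20 left out, which gave 46 genes, 45 of them among the 29374 genes with any estimated read. Of these members, 39 passed the filter on low reads and were tested, among 16656 genes tested in all. Carriers were grouped by the substrate each is known to move, and 10 members were left without a substrate.

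SLC25 carriers are small proteins of the inner mitochondrial membrane that fold around a central path and open in turn to either side, so that a metabolite, nucleotide, amino acid, cofactor or ion is passed across or exchanged for another. They link the cytosol to the respiratory chain, the citric acid cycle, heme synthesis and the breakdown of amino acids. In myeloid and erythroid precursors the family is best known for its iron and glycine carriers, which feed heme synthesis.

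Spleen cells of tumor-bearing animals were sorted on the myeloid antigens CD11b and Gr1, and their RNA gave 3 libraries from Rpl22+/+ Mll-AF9 mice and 3 libraries from Rpl22-/- Mll-AF9 mice. Mll-AF9 is a fusion oncogene of acute myeloid leukemia, carried here as a knockin allele by all mice of both genotypes, and Rpl22 is a ribosomal protein of the large subunit. The Rpl22-deficient line was kept on the C57BL/6 background and crossed to the knockin, according to the methods. The methods speak of young adult mice in general and of knockin mice taken when symptoms of disease appeared or at set times, and the age of the animals behind each library was not given in the sources used here. A legend of the study names a single mouse identifier per genotype for the leukemia explants that were sequenced, while the labels number 3 replicates and name no animal. The 3 libraries of a genotype may thus come from 1 animal, and the p-values below measure only the spread between libraries, which may be technical.

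Rpl22 itself was listed at 596, 730 and 615 TPM in the Rpl22+/+ libraries and at 234, 326 and 290 TPM in the Rpl22-/- libraries. The groups did not overlap, and the log2 fold change was -1.27 (adjusted p = 0.0106). Rpl22 was thus lower in the libraries labelled Rpl22-/-, but its reads were far from absent. The part of the gene removed in these mice was not given in the sources used here, and reads inside it were not examined. Whether stretches of Rpl22 also occur in other genes was not examined either. TPM is a transcript abundance scaled for transcript length, and the p-value is that of edgeR's quasi-likelihood test, adjusted by Benjamini-Hochberg over all genes tested. The libraries held between 35828500 and 102866127 estimated reads. Rpl22+/+ replicate 2 stood apart, since its log2 levels correlated at 0.926 and 0.934 with the other 2 libraries of its genotype, against 0.992 between those. That library had the highest value of its genotype for 28 of the 39 tested carriers, in CPM. CPM are reads scaled to a common library size, with a correction for composition. The markers of the sort moved as well: Itgam (CD11b) fell (log2 fold change -1.02, adjusted p = 0.00482), as did Ly6g (-3.49, adjusted p = 9.7e-05), 1 of the antigens seen by Gr1 antibodies. The other antigens these antibodies bind did not pass, with Ly6c2 at 1677 to 2171 TPM in Rpl22+/+ and 2631 to 3302 TPM in Rpl22-/- (0.51, adjusted p = 0.18) and Ly6c1 at 0.40 on the log2 scale (adjusted p = 0.36). Mpo and Elane of the primary granules rose (2.99, adjusted p = 0.000663, and 3.48, adjusted p = 0.00033). In TPM, Rpl22+/+ libraries summed to 4525 to 5261 over the 7 markers of sorted myeloid cells and Rpl22-/- libraries to 20042 to 24186, most of the latter from Mpo and Elane. The other 5 markers summed to 2875 to 3216 and to 3509 to 4060. T cell markers were lower in 6 of 6, with a summed level of 27.1 to 33.9 TPM in Rpl22+/+ and 8.96 to 11 TPM in Rpl22-/-. Of the B cell markers, 1 of 5 was lower. Only 2 of 5 megakaryocyte and 3 of 5 stromal markers could be tested, and none of them passed. Of the stromal markers, Pecam1 came near the threshold (0.50, adjusted p = 0.0513), while Col1a1 and Cdh5 were at -0.49 and -0.65. The part of these cells in the results that follow was not tested.

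Of the 39 carriers tested, 8 (20.5%) passed the test, meaning an adjusted p under 0.05, against 27.6% of all genes tested. Lower in Rpl22-/- were 6 (15.4%, against 13.8% of all genes), namely Slc25a24, Slc25a29, Slc25a4, Slc25a30, Slc25a16 and Slc25a28. Higher were 2 (5.13%, against 13.7%), namely Slc25a38 and Slc25a22. With an absolute log2 fold change over 1 as well, 3 carriers were called (7.69%, against 17.5% of all genes), all of them lower (against 8.54%), and 0 were called higher (against 8.93%) by edgeR, DESeq2 or limma-voom. The 3 libraries of a genotype lay fully above or below the other 3 for 16 carriers (41%), against 46.1% of all genes. The median log2 fold change was -0.01 over the 39 carriers and 0.07 over all genes tested. The sign of the carriers' median turned with the scaling, to 0.13 without a composition factor (0.19 over all genes) and 0.05 on both log2 TPM scales (0.10 with a pseudocount of 1 and 0.19 with 0.1 over all genes).

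**Figure D1:**
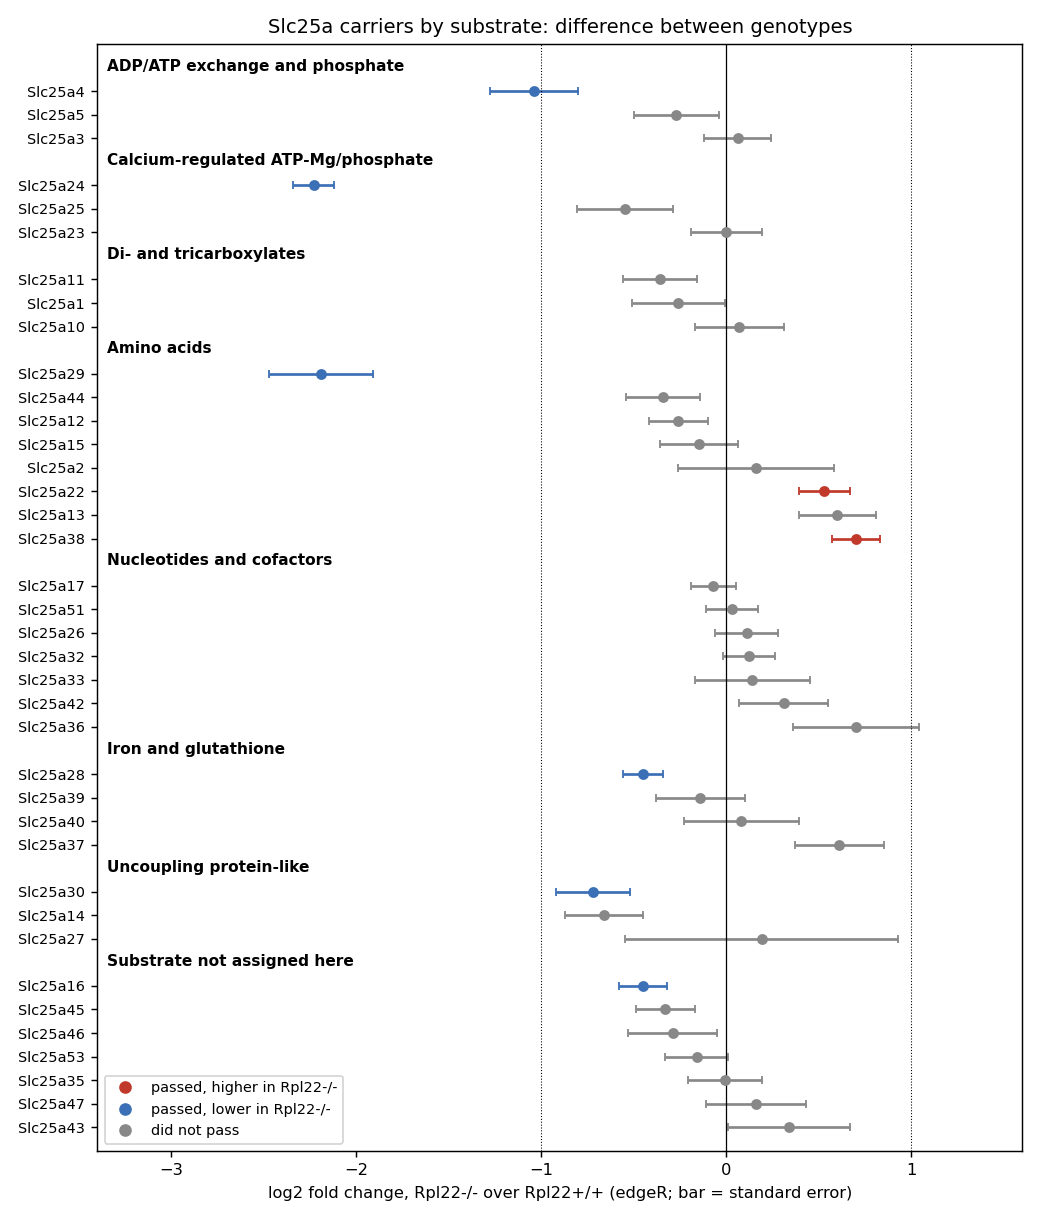
Log2 fold change of 38 of the 39 tested carriers, Rpl22-/- over Rpl22+/+, with its standard error, grouped by substrate (3 libraries a genotype). Slc25a24 (-2.23) and Slc25a29 (-2.19) lie farthest to the left, and no carrier that passed exceeds 0.70 to the right.

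The start-site regions of the 3 called carriers and of Slc25a38, the higher carrier with the lowest adjusted p, are shown because these are the members the counts above turn on. They run from 250 bases before to 50 bases after the start, from RefSeq on GRCm38.p6, and capitals mark the GC box, GGGCGG or its complement CCGCCC. Slc25a24 is at chr3:109122899-109123198 on the plus strand, Slc25a29 at chr12:108835827-108836126 on the minus strand, Slc25a4 at chr8:46211013-46211312 on the minus strand and Slc25a38 at chr9:120110132-120110431 on the plus strand.
Slc25a24: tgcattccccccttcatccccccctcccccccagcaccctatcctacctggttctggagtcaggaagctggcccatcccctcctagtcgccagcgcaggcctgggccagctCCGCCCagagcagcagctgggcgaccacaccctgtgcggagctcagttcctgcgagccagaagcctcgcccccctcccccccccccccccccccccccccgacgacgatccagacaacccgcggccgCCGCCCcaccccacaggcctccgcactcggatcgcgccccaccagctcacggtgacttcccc
Slc25a29: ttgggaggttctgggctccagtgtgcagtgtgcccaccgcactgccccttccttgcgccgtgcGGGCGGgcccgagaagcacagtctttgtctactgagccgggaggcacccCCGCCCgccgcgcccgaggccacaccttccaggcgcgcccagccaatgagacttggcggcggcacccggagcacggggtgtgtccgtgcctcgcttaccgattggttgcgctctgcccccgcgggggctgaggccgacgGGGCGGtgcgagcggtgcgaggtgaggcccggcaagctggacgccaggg
Slc25a4: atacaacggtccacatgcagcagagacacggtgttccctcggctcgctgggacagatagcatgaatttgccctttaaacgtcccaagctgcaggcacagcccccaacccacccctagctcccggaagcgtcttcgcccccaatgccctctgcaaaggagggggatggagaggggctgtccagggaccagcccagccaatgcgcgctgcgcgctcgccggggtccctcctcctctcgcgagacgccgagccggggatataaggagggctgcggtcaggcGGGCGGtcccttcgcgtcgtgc
Slc25a38: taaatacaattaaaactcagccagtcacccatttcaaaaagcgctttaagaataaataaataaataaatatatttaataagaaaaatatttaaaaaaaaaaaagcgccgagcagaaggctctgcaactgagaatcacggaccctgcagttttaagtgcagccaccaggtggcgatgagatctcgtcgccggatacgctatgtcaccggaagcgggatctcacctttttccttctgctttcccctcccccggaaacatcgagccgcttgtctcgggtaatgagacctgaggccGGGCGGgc
Each of these 4 windows held the motif. RefSeq's table had 45 such windows for 35 members, and 37 of the 45 (82.2%) held a GC box on either strand, against 35.7% of 32851 windows of all genes. The median number of CG pairs was 15 per carrier window and 7 per window of all genes. TATAAA or TTTATA was in 2 of the 45 windows, against 13.6% of all windows, and both belonged to carriers with too few reads to test, Slc25a18 and Slc25a21. These are matches of letters and do not show that a factor binds. The windows of all genes were not limited to genes tested here, so the contrast may not be particular to the carriers.

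The calcium-regulated carriers exchange ATP-Mg for phosphate across the inner membrane and so set the size of the matrix adenine nucleotide pool. Slc25a24, the main one in these cells, gave 120, 120 and 119 CPM in Rpl22+/+ and 25.5, 25.9 and 25.2 CPM in Rpl22-/-. The libraries of each genotype lay within about 1 CPM of each other and the groups did not overlap. Slc25a24 fell 4.70-fold, with a log2 fold change of -2.23 ± 0.11 (SE, n = 3 and 3, adjusted p = 7.66e-05, edgeR), and it passed in all 15 alternative analyses. The gene lies at chr3:109030465-109075773 (GRCm39), and 1 protein-coding transcript, Slc25a24-201, carried 99.6% to 99.9% of its reads in every library. It is also among the genes that the study labelled in a heatmap of these samples, so its direction here is not independent of that choice.

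Of the other members of that group, Slc25a25 had 23.1 ± 6.71 CPM in Rpl22+/+ and 15.8 ± 3.58 CPM (SD, n = 3) in Rpl22-/-, and its groups overlapped (log2 fold change -0.55 ± 0.26 SE, adjusted p = 0.167, edgeR). Slc25a23 stood at 5.19 ± 0.673 and 5.17 ± 0.659 CPM (adjusted p = 0.99). Slc25a41 had 4 reads over all 6 libraries. Levels of different genes are set side by side in TPM only: the summed level of the group was 59.2, 49.4 and 57.3 TPM in Rpl22+/+ and 20.6, 17.2 and 21.5 TPM in Rpl22-/-. Slc25a24 made up most of the sum in Rpl22+/+, and its TPM was 5.16 ± 1.27 times that of Slc25a25 there and 1.41 ± 0.267 times in Rpl22-/-. In the bulk RNA of a sort, fewer cells of a type and less RNA per cell cannot be told apart, for this and the results below.

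The ADP/ATP carriers bring ADP into the matrix and send out the ATP made there, and the phosphate carrier supplies the phosphate for that reaction. The ADP/ATP carrier Slc25a5 had the highest level of the 46 members, at 384, 474 and 416 TPM in Rpl22+/+ and 342, 413 and 389 TPM in Rpl22-/-. The groups overlapped (log2 fold change -0.27 ± 0.23 SE, adjusted p = 0.431, edgeR). Of its 59-base stretches, the length of 1 read, 38.3% also occur in transcripts of other genes, none of them another carrier, so its reads are in part uncertain.

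Slc25a4, the ADP/ATP carrier best known from heart and muscle, gave 45.7, 69.2 and 49.3 CPM in Rpl22+/+ and 19.9, 31.3 and 28.5 CPM in Rpl22-/-. Rpl22+/+ replicate 2 was highest, and even the highest Rpl22-/- library stayed below the lowest Rpl22+/+ library. Slc25a4 fell 2.06-fold (log2 fold change -1.04 ± 0.24 SE, adjusted p = 0.0185, edgeR) and passed in 13 of 15 alternatives. The threshold was missed when either replicate 1 (adjusted p = 0.0579) or replicate 3 (0.0623) of Rpl22-/- was left out. The log2 fold change was below 1 in size, so that Slc25a4 was no longer called, without Rpl22+/+ replicate 2 (-0.87), without a composition factor (-0.90) and on the log2(TPM + 1) and log2(TPM + 0.1) scales (-0.88 and -0.91). Set against Slc25a5 within each library, its TPM was 0.0898, 0.0842 and 0.0875 of that of Slc25a5 in Rpl22+/+ and 0.0481, 0.052 and 0.0548 in Rpl22-/-. This ratio kept closer within a genotype than the CPM of either gene did, and the genotypes did not overlap.

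The phosphate carrier Slc25a3 was second in level, at 229 ± 6.90 TPM in Rpl22+/+ and 253 ± 35.9 TPM in Rpl22-/- (SD, n = 3), and did not pass (log2 fold change 0.06 ± 0.18 SE, adjusted p = 0.858, edgeR). Slc25a31, the germ-line ADP/ATP carrier, had 0 reads in the Rpl22+/+ libraries and 4 in the Rpl22-/- libraries. Slc25a3, Slc25a4 and Slc25a5 together gave 691 ± 55.4 TPM in Rpl22+/+ and 654 ± 57.1 TPM in Rpl22-/-. That was 50.5% and 48.8% of the summed TPM of all members, which stood at 1369 ± 36.2 and 1341 ± 48.8 TPM.

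**Figure D2:**
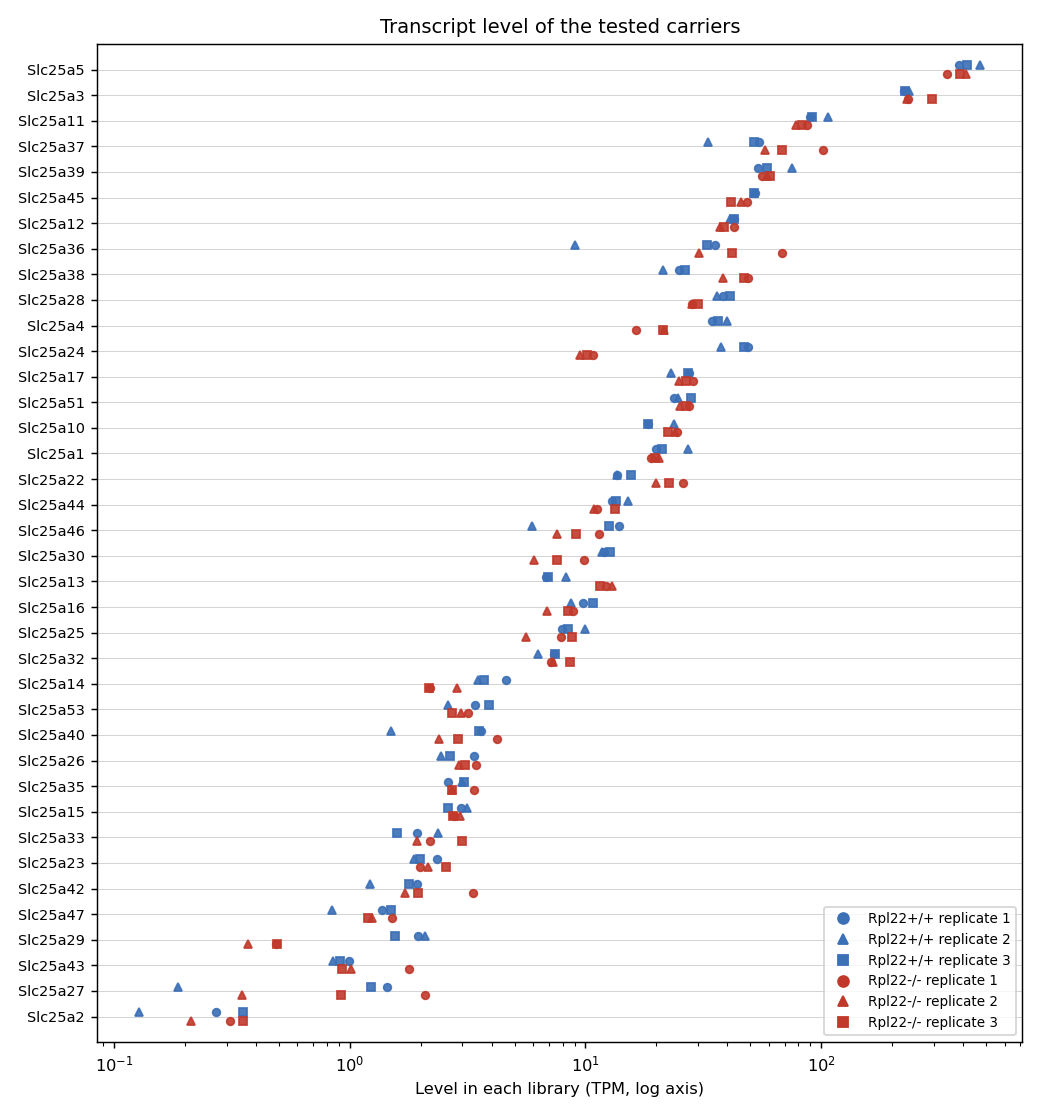
Level of 38 of the 39 tested carriers in every library, in TPM on a log axis, ordered by the mean of all 6 libraries. Slc25a5 and Slc25a3 lie at the top, Slc25a24 and Slc25a29 show the widest gap between genotypes, and Rpl22+/+ replicate 2 (triangle) lies apart for Slc25a36, Slc25a37 and Slc25a46.

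In Rpl22+/+ the mean levels ran from Slc25a5 (425 TPM) and Slc25a3 (229) through Slc25a11 (96.1), Slc25a39 (62.6), Slc25a45 (52.1) and Slc25a37 (46.5) to Slc25a43 (0.918) and Slc25a2 (0.25) at the bottom. In Rpl22-/- the order began with Slc25a5 (381), Slc25a3 (253), Slc25a11 (82.9), Slc25a37 (76.0) and Slc25a39 (58.6) and ended with Slc25a29 (0.448) and Slc25a2 (0.292). Of the 38 pairs of neighbours in each order, the libraries overlapped in 28 pairs in Rpl22+/+ and in 29 pairs in Rpl22-/-, so those neighbours were not separated. Slc25a5 stood clear of Slc25a3, and Slc25a3 of Slc25a11, in both genotypes. The 7 carriers left out for few reads were Slc25a18 with 8 reads over the 6 libraries, Slc25a21 with 79.2, Slc25a31 and Slc25a41 with 4 each, Slc25a34 with 21, Slc25a48 with 5.02 and Slc25a54 with 0. For Slc25a54, a count of 0 allows up to 3 reads over the 6 libraries, or 0.00649 CPM, as far as counting error goes. These reads do not say whether such a carrier is made in some of the cells.

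The carriers of di- and tricarboxylates exchange citrate, malate, succinate and 2-oxoglutarate between matrix and cytosol, and 0 of the 3 tested passed in edgeR, DESeq2 or limma-voom, or at an unadjusted p under 0.05 in any of these. Slc25a11, the 2-oxoglutarate/malate carrier of the malate-aspartate shuttle, gave 97.7, 157 and 103 CPM in Rpl22+/+ and 91.4, 94.0 and 93.1 CPM in Rpl22-/-. All 3 Rpl22-/- libraries lay below the Rpl22+/+ libraries, but Rpl22+/+ replicate 2 was far above the other 2, and the test was not passed (log2 fold change -0.36 ± 0.20 SE, adjusted p = 0.24, edgeR). The citrate carrier Slc25a1 (-0.26 ± 0.25, adjusted p = 0.501) and the dicarboxylate carrier Slc25a10 (0.07 ± 0.24, adjusted p = 0.859) did not pass either. Slc25a21, the oxodicarboxylate carrier, was left out for few reads. Its Rpl22+/+ libraries held 2, 8 and 6 reads, against 2, 15 and 46.1 for Rpl22-/-, so that the groups overlapped and most of its reads came from 1 library.

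The 8 amino acid carriers tested held both of the carriers that rose and 1 of the 6 that fell. Of all genes tested, 13.7% passed higher and 13.8% lower, and the median log2 fold change of this group was 0.01. Slc25a29, which moves basic amino acids such as arginine and lysine, gave 2.5, 3.3 and 2.1 CPM in Rpl22+/+ and 0.642, 0.509 and 0.585 CPM in Rpl22-/-. The level was low throughout, on 577 reads in Rpl22+/+ and 137 in Rpl22-/-, and the groups lay far apart. Slc25a29 fell 4.56-fold (log2 fold change -2.19 ± 0.28 SE, adjusted p = 0.00203, edgeR) and passed in all 15 alternatives. On the log2(TPM + 1) scale, which understates changes of low genes, its log2 fold change was -0.98. It lies at chr12:108791799-108801809 (GRCm39), beside Slc25a47 at chr12:108801972-108822741, a carrier whose substrate was not assigned here and which did not pass (0.16 ± 0.27, adjusted p = 0.717).

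Slc25a38, the glycine carrier of erythroid heme synthesis, gave 23.8, 28.6 and 25.9 CPM in Rpl22+/+ and 42.3, 40.2 and 44.9 CPM in Rpl22-/-. Every Rpl22-/- library was above every Rpl22+/+ library. Slc25a38 rose 1.63-fold (log2 fold change 0.70 ± 0.13 SE, adjusted p = 0.0089, edgeR) and passed in 14 of 15 alternatives, missing without Rpl22+/+ replicate 3 (adjusted p = 0.0509). The gene lies on chromosome 9, where the median log2 fold change of 738 genes was 0.39. Chromosome 4 had a median of 0.43 (781 genes) and the other chromosomes had -0.04 to 0.12. Erythroid markers were higher as well, 8 of 9, with a summed level of 249 to 288 TPM in Rpl22+/+ and 1686 to 3069 TPM in Rpl22-/-, most of it globin. Klf1, a defining factor of that lineage, was listed at 0 in 2 of the Rpl22-/- libraries and at 1.10 TPM in the third. The part of the chromosome and of erythroid RNA in the rise of Slc25a38 was not tested.

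Slc25a22, a glutamate carrier, gave 23.3, 27.9 and 25.2 CPM in Rpl22+/+ and 40.2, 34.6 and 35.2 CPM in Rpl22-/-. The groups did not overlap, and Slc25a22 rose 1.44-fold (log2 fold change 0.53 ± 0.14 SE, adjusted p = 0.0292, edgeR). It passed in 10 of 15 alternatives. With protein-coding transcripts alone, which carried 26.0% of its reads on average, the log2 fold change was 0.25 (adjusted p = 0.475). It also missed without Rpl22+/+ replicate 1 (0.116), Rpl22+/+ replicate 3 (0.118), Rpl22-/- replicate 1 (0.104) or Rpl22-/- replicate 3 (0.0854).

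The aspartate/glutamate carriers Slc25a12 and Slc25a13 export aspartate from the matrix in the malate-aspartate shuttle. Slc25a12 gave 71.9, 96.6 and 71.8 CPM in Rpl22+/+ and 66.9, 67.7 and 66.5 CPM in Rpl22-/-. It was lower in all 3 Rpl22-/- libraries without passing (log2 fold change -0.26 ± 0.16 SE, adjusted p = 0.279, edgeR). Slc25a13 gave 14.7, 22.6 and 14.8 CPM in Rpl22+/+ and 25.1, 29.3 and 24.8 CPM in Rpl22-/-. It missed the threshold (0.60 ± 0.21, adjusted p = 0.0742), passed in 7 of 15 alternatives, among them without Rpl22+/+ replicate 2 (adjusted p = 0.00511), and passed with the replicate number as a block (adjusted p = 0.0226). The TPM of Slc25a13 was 0.16, 0.201 and 0.164 of that of Slc25a12 in Rpl22+/+ and 0.286, 0.349 and 0.297 in Rpl22-/-, and these ratios did not overlap.

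The transcripts behind this pair differed. A transcript annotated for nonsense-mediated decay, Slc25a12-207, carried 70.9% to 75.4% of the reads of Slc25a12 in every library. For Slc25a13, the protein-coding transcript Slc25a13-203 carried 20.4%, 22.7% and 25.7% of the reads in Rpl22+/+ and 3.44%, 12.9% and 15.8% in Rpl22-/-, with Slc25a13-201 carrying most of the rest. These shares did not overlap, and they are Salmon's division of reads that fall on shared exons, with no test applied.

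The remaining amino acid carriers did not pass. Slc25a44, which imports branched-chain amino acids, was at -0.34 ± 0.20 on the log2 scale (SE, adjusted p = 0.26, edgeR), the ornithine carriers Slc25a15 and Slc25a2 were at -0.15 ± 0.21 (0.641) and 0.16 ± 0.42 (0.818), and the glutamate carrier Slc25a18 was left out for few reads. Summed over the group, the level was 106, 105 and 110 TPM in Rpl22+/+ and 144, 123 and 137 TPM in Rpl22-/-, so every Rpl22-/- library lay above. The rise of Slc25a38 and Slc25a22 is part of this sum.

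**Figure D3:**
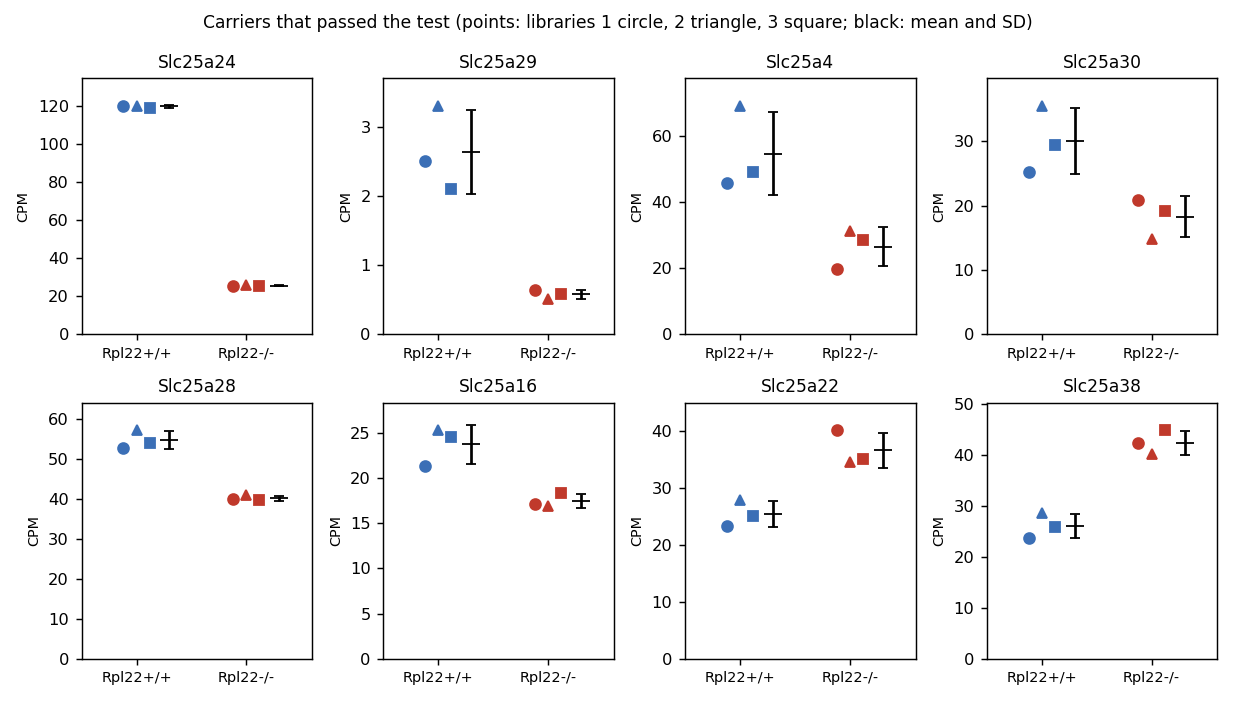
CPM in each library of the 8 carriers that passed, with the mean and SD (n = 3) in black. In each panel the genotypes do not overlap, most widely for Slc25a24 (119 to 120 against 25.2 to 25.9 CPM).

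Carriers of nucleotides and cofactors bring pyrimidine nucleotides, coenzyme A, S-adenosylmethionine, folate and NAD into the matrix, or serve the peroxisome in the case of Slc25a17. Of the 8 tested, 0 passed in edgeR, DESeq2 or limma-voom, and 0 had an unadjusted p under 0.05 in any of these. Slc25a17, Slc25a26, Slc25a32, Slc25a33, Slc25a42 and the NAD carrier Slc25a51 lay between -0.07 and 0.31 on the log2 scale.

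Slc25a36, a pyrimidine nucleotide carrier, varied widely between libraries. It gave 72.3, 32.9 and 67.7 CPM in Rpl22+/+ and 123, 72.2 and 86.0 CPM in Rpl22-/-. Replicate 2 was lowest in both genotypes, and Rpl22-/- replicate 2 fell just below Rpl22+/+ replicate 1. The log2 fold change was 0.70 ± 0.34 (SE, adjusted p = 0.177, edgeR), and the gene passed with the replicate number as a block (adjusted p = 0.0248) and in no other alternative. Like Slc25a38 it lies on chromosome 9, and 8.43% of its 59-base stretches occur in other genes. Its TPM was 18.5, 3.81 and 20.7 times that of the other pyrimidine nucleotide carrier, Slc25a33, in Rpl22+/+ and 31.2, 15.7 and 13.9 times in Rpl22-/-, and the genotypes overlapped.

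The mitoferrins Slc25a37 and Slc25a28 bring iron into the matrix for heme and iron-sulfur clusters, the first mainly in erythroid precursors. Slc25a28 (mitoferrin 2) gave 52.8, 57.2 and 54.1 CPM in Rpl22+/+ and 39.9, 40.9 and 39.7 CPM in Rpl22-/-. The spread within a genotype was small and the groups did not overlap. Slc25a28 fell 1.36-fold (log2 fold change -0.45 ± 0.11 SE, adjusted p = 0.0268, edgeR) and passed in 9 of 15 alternatives. It missed with protein-coding transcripts alone (log2 fold change -0.63, adjusted p = 0.0969) with no filter on low counts (0.0587) and without Rpl22+/+ replicate 1 (0.0739), Rpl22+/+ replicate 3 (0.104), Rpl22-/- replicate 1 (0.0929) or Rpl22-/- replicate 3 (0.115).

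Slc25a37 (mitoferrin 1) gave 200, 145 and 188 CPM in Rpl22+/+ and 360, 219 and 232 CPM in Rpl22-/-. Each Rpl22-/- library was above each Rpl22+/+ library, but Rpl22-/- replicate 1 was far above the other 2. The log2 fold change of 0.61 ± 0.24 did not pass (SE, adjusted p = 0.108, edgeR). It passed with the replicate number as a block (adjusted p = 0.0335) and in no other alternative. The TPM of Slc25a37 was 1.41, 0.914 and 1.26 times that of Slc25a28 in Rpl22+/+ and 3.58, 2.04 and 2.29 times in Rpl22-/-, without overlap. Of the erythroid markers given beside Slc25a38, 8 of 9 were higher in Rpl22-/- as well, and their part in this ratio was not tested.

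**Figure D4:**
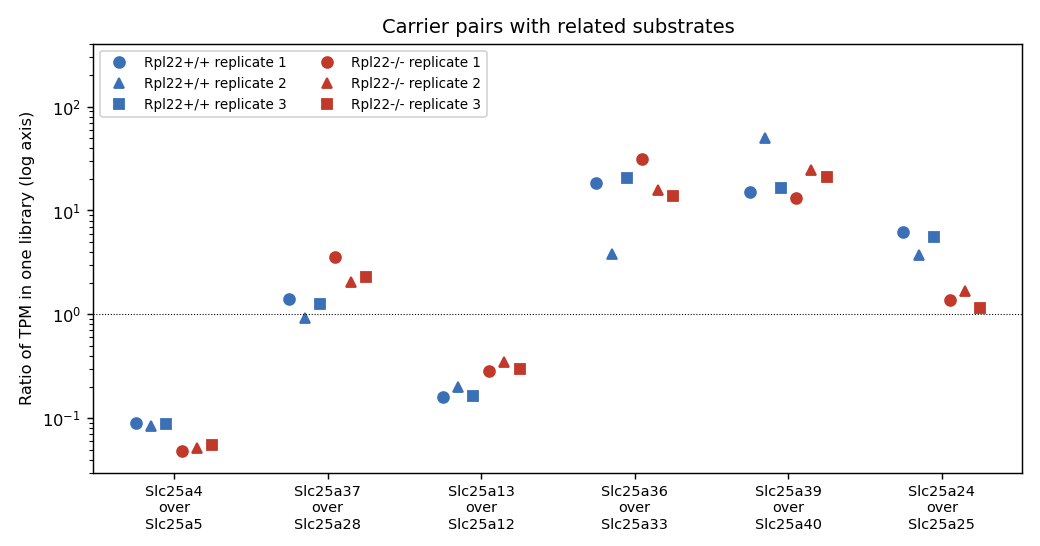
TPM of 1 carrier over that of a second carrier with a related substrate, in each library, on a log axis. The genotypes do not overlap for Slc25a4 over Slc25a5, Slc25a37 over Slc25a28, Slc25a13 over Slc25a12 and Slc25a24 over Slc25a25, and overlap for the other 2 pairs.

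A large share of the reads of both mitoferrins fell on transcripts annotated as keeping an intron. Slc25a37-203 carried 73.3%, 60.3% and 69.6% of the reads of Slc25a37 in Rpl22+/+ and 73.0%, 68.7% and 63.6% in Rpl22-/-. Slc25a28-202 carried 56.3%, 41.3% and 51.5% of the reads of Slc25a28 in Rpl22+/+ and 62.8%, 51.2% and 50.5% in Rpl22-/-. In neither gene did the shares separate the genotypes. Both transcripts keep intron 2, of 1756 bases in Slc25a37 and 1086 bases in Slc25a28, and the border is shown to mark where the kept intron begins. Each sequence is 60 bases on the minus strand of GRCm38, at chr14:69249364-69249423 for Slc25a37 and chr19:43666885-43666944 for Slc25a28, with the last 30 bases of exon 2 in capitals and the first 30 bases of intron 2 in lower case.
Slc25a37: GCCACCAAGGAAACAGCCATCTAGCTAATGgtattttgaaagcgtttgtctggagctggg
Slc25a28: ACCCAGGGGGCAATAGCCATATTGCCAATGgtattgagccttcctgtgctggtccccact
In both genes the exon ends in AATG and the intron opens with gtatt.

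Transcripts keeping an intron carried at least 10% of the reads on average in 6 carriers, Slc25a37, Slc25a28, Slc25a22, Slc25a40, Slc25a3 and Slc25a42. The genotypes overlapped in all 6. Rpl22+/+ replicate 2 had the lowest share of its genotype in all 6, as low as 6.17% for Slc25a40, where the other Rpl22+/+ libraries had 35.5% and 32.5%. Over all members, 16.0%, 7.87% and 14.8% of the reads were on such transcripts in Rpl22+/+ and 22.5%, 15.0% and 18.3% in Rpl22-/-. At the other end, protein-coding transcripts carried at least 90% of the reads of 26 carriers.

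**Figure D5:**
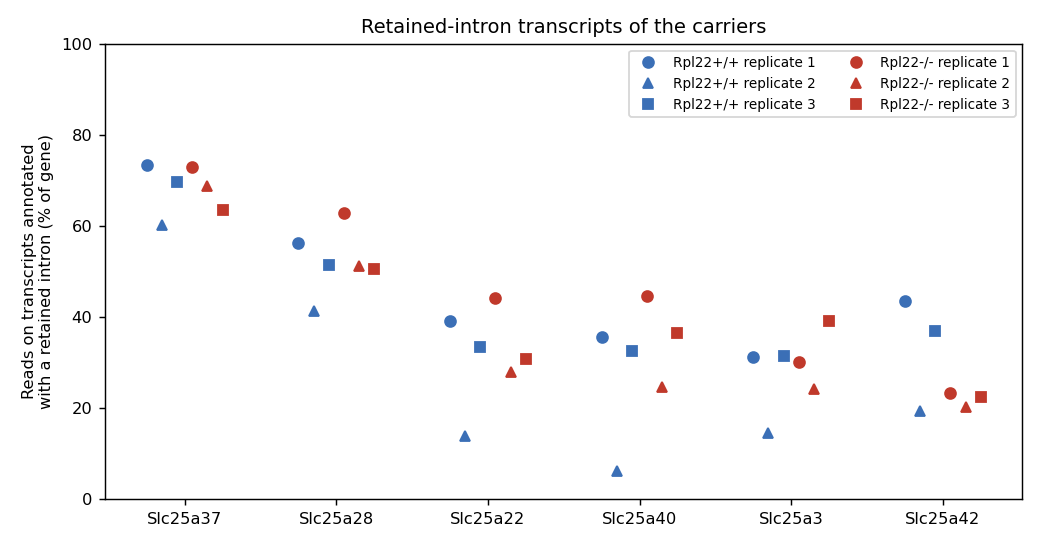
Share of a gene's reads on transcripts annotated with a retained intron, in each library, for the 6 carriers where it averaged at least 10%. Slc25a37 has the highest shares (60.3% to 73.3%), no gene separates the genotypes, and Rpl22+/+ replicate 2 (blue triangle) is the lowest Rpl22+/+ library in each.

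The glutathione carriers Slc25a39 and Slc25a40 did not pass. Slc25a39 had 70.9 ± 24.2 CPM in Rpl22+/+ and 64.5 ± 5.08 CPM (SD, n = 3) in Rpl22-/- (log2 fold change -0.14 ± 0.24 SE, adjusted p = 0.73, edgeR), and Slc25a40 had 6.27 ± 2.11 and 6.62 ± 1.53 CPM (0.08 ± 0.31, adjusted p = 0.89). The direction of both turned in some alternatives, the former without a composition factor. The TPM of Slc25a39 was 13.3 to 50 times that of Slc25a40 over the 6 libraries, with the highest ratio in Rpl22+/+ replicate 2.

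The uncoupling protein-like carriers are named for their sequence, and what they move in vivo is less settled. Slc25a30 gave 25.2, 35.5 and 29.5 CPM in Rpl22+/+ and 20.9, 14.8 and 19.2 CPM in Rpl22-/-. The groups did not overlap, though Rpl22-/- replicate 1 came near Rpl22+/+ replicate 1. Slc25a30 fell 1.64-fold (log2 fold change -0.72 ± 0.20 SE, adjusted p = 0.0357, edgeR) and passed in 11 of 15 alternatives. It missed without Rpl22+/+ replicate 3 (0.102), Rpl22-/- replicate 1 (0.0626), Rpl22-/- replicate 2 (0.0504) or Rpl22-/- replicate 3 (0.101).

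Slc25a14 had 3.34 ± 0.345 CPM in Rpl22+/+ and 2.12 ± 0.293 CPM (SD, n = 3) in Rpl22-/-, and its groups did not overlap (log2 fold change -0.66 ± 0.21 SE, adjusted p = 0.0598, edgeR). It passed in 3 of 15 alternatives, and with protein-coding transcripts alone the log2 fold change was -0.12 (adjusted p = 0.827). Slc25a27 was low and variable, at 1.59 ± 1.05 and 1.83 ± 1.23 CPM (0.19 ± 0.74, adjusted p = 0.885). Ucp2, a member of the same protein family with another name, had 1003 ± 328 and 584 ± 78.5 CPM and did not pass in edgeR (-0.78 ± 0.25, adjusted p = 0.0626), though it passed in 8 of 15 alternatives, DESeq2 (adjusted p = 0.0101) and the replicate block (0.0297) among them. Mtch1 and Mtch2 did not pass in edgeR, DESeq2 or limma-voom.

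Among the 7 tested carriers left without a substrate, Slc25a16 passed. It gave 21.3, 25.3 and 24.6 CPM in Rpl22+/+ and 17.1, 16.9 and 18.3 CPM in Rpl22-/-. The groups did not overlap, and Slc25a16 fell 1.36-fold (log2 fold change -0.45 ± 0.13 SE, adjusted p = 0.0478, edgeR). It lay nearest to the threshold and passed in 6 of 15 alternatives. It missed without each library except Rpl22+/+ replicate 2, at an adjusted p of 0.0724 without Rpl22+/+ replicate 1, 0.169 without Rpl22+/+ replicate 3, and 0.138, 0.0864 and 0.121 without Rpl22-/- replicates 1, 2 and 3. It also missed without a composition factor (0.0689), with no filter on low counts (0.0915) and on the log2(TPM + 1) and log2(TPM + 0.1) scales, where the log2 fold changes were -0.25 (0.259) and -0.27 (0.242). Slc25a46, of the outer membrane, did not pass (-0.29 ± 0.24, adjusted p = 0.446), though it did without Rpl22+/+ replicate 2 (-0.56, adjusted p = 0.0108). Slc25a35, Slc25a43, Slc25a45, Slc25a47 and Slc25a53 lay between -0.33 and 0.34 on the log2 scale and did not pass. Slc25a53 passed with protein-coding transcripts alone (-0.59, adjusted p = 0.0408). Slc25a34, Slc25a48 and Slc25a54 were left out for few reads.

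The enzymes and transporters that work beside the carriers were set out in 6 lists of 71 genes, of which 68 were tested, 10 rose and 9 fell (27.6% of all genes passed, 13.7% higher and 13.8% lower). These counts depended on the processing, with 5 to 24 passing higher and 6 to 15 lower over the alternatives. Other transporters of the mitochondrial membranes were 6 lower and 1 higher of 15. Sfxn5, of the sideroflexin family of amino acid transporters, fell from 20.3 ± 0.516 to 6.87 ± 1.25 CPM (SD, n = 3, log2 fold change -1.57 ± 0.17 SE, adjusted p = 0.00123, edgeR). Mcub, the dominant-negative subunit of the calcium uniporter, fell from 15.4 ± 4.95 to 2.72 ± 0.986 CPM (-2.49 ± 0.37, adjusted p = 0.00368).

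Enzymes of the malate-aspartate shuttle and of citrate were 3 lower and 1 higher of 14 tested in edgeR, and 6 lower and 1 higher in DESeq2. At an unadjusted p under 0.05, 6 were lower and 1 was higher in edgeR, DESeq2 and limma-voom alike. Got1, the cytosolic aspartate aminotransferase, fell from 35.5 ± 5.83 to 15.5 ± 2.16 CPM (SD, n = 3, log2 fold change -1.20 ± 0.18 SE, adjusted p = 0.00399, edgeR), and Me2, the mitochondrial malic enzyme, from 137 ± 31.4 to 71.9 ± 10.6 CPM (-0.93 ± 0.20, adjusted p = 0.0165). The shuttle's own carriers Slc25a11, Slc25a12 and Slc25a13 did not pass in edgeR. Slc25a13 passed in 7 of 15 alternatives, DESeq2 (adjusted p = 0.0445) among them.

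Heme and iron-sulfur synthesis had 4 higher and 0 lower of 15, a pathway that Slc25a38 and the mitoferrins supply (0 lower at an unadjusted p under 0.05 as well in edgeR and 1 in DESeq2). Alas1, the first enzyme of heme synthesis in most cells, rose from 218 ± 45.1 to 984 ± 49.8 CPM (SD, n = 3, log2 fold change 2.18 ± 0.19 SE, adjusted p = 0.000475, edgeR). Alas2, its erythroid counterpart and 1 of the erythroid markers above, rose from 1.92 ± 0.501 to 14.1 ± 4.95 CPM (2.88 ± 0.34, adjusted p = 0.00149). Both use the glycine that Slc25a38 carries. Ferrochelatase, encoded by Fech, which inserts iron at the last step, did not pass (-0.36 ± 0.16, adjusted p = 0.153).

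In glutathione synthesis and use, 3 of 8 genes were higher and 0 were lower, also at an unadjusted p under 0.05 in edgeR, DESeq2 and limma-voom. Gclm, a subunit of the first enzyme of glutathione synthesis, rose from 25.4 ± 3.10 to 59.6 ± 3.70 CPM (SD, n = 3, log2 fold change 1.23 ± 0.14 SE, adjusted p = 0.00136, edgeR), and Gpx1, a glutathione peroxidase, from 989 ± 276 to 1953 ± 213 CPM (0.98 ± 0.23, adjusted p = 0.0209). The glutathione carriers described above did not pass. Of the 13 genes that import carrier proteins into the inner membrane, 1 passed: Timm9, a chaperone of the intermembrane space, rose from 7.49 ± 0.762 to 12.8 ± 0.740 CPM (0.78 ± 0.15, adjusted p = 0.0102).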

How the data were processed

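Poly(A)-enriched stranded RNA libraries of 6 samples were sequenced as paired ends of 59 bases. Per the study's methods, the authors used Trimmomatic for trimming and Salmon for quantification, and versions and transcript set were not given in the sources used here, and the submitters' processing notes name the build GRCm39. The authors deposited estimated counts (expected counts, which need not be whole) and TPM per transcript for each library. The authors also deposited their DESeq2 comparison (base mean signal, log2 fold changes with errors, a Wald score, p-values and their −log10), of which only gene positions were used.

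Counts were summed to genes with GENCODE vM21, matched on identifiers without versions. Of 276623 transcripts, 136036 (49.2%) matched, carrying 97.96% to 98.14% of reads. Rpl22+/+ libraries had depths of 70202750, 88483406 and 76256404 estimated reads, Rpl22-/- libraries of 35828500, 99806050 and 102866127. No molecular identifiers were used, so a floor covers counting error only. Sums were rounded, filtered with filterByExpr, scaled by TMM and tested with edgeR 4.0.16 (R 4.3.3), genotype the only term. SE is that implied by the F statistic. A 59-base stretch was sought in all transcripts of other genes.

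Tested on simulated data (3 simulations of 3 against 3, 16656 genes, 200 changed), edgeR recovered 6.0% of 2-fold and 56.3% of 4-fold changes with 7.5% of calls false. Most 2-fold changes were thus missed in that setting. DESeq2 1.42.0 recovered 29.0% and 80.0% with 37.4% false, and limma-voom (limma 3.58.1) 5.67% and 54.7% with 5.85% false. In the data 27.6% of all genes passed, far more than were changed in the simulation. The share of changes missed in the data was therefore not measured.

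The 15 alternatives were median-ratio size factors, no composition factor, no filter, DESeq2, limma-voom, limma on log2(TPM + 1) and on log2(TPM + 0.1), the replicate number as a block, protein-coding transcripts only, and each of the 6 libraries left out. The labels number the replicates 1 to 3 in each genotype without saying that a number is shared. Deviations of same-numbered libraries from their genotype means correlated at 0.570, 0.715 and 0.129 over 13202 well-read genes (mean 50 reads or more) and at 0.479, 0.634 and 0.0974 over all genes tested. Between libraries of unlike number the highest correlation was 0.43 over the well-read genes. Whether the numbers pair the libraries was thus not settled.

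Carriers, lists and rules were chosen with earlier results of these data known. Named in full were carriers that passed, the carrier with the highest mean TPM per substrate group, 6 pairs of related carriers, and per partner list the 2 passed genes with the largest change. The values of 1 tested carrier are not reported here, though it is in all counts over carriers. Fech, Mtch1, Mtch2 and Ucp2 were chosen after their values were seen.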

Additional observations from a re-analysis of the deposited data

How the results depend on the processing

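Of the comparisons of the named carriers with their 15 alternatives, 227 kept direction and side of the adjusted p threshold, 27 no longer passed it, 9 newly passed it, and 7 changed sign. These counts take no account of the fold limit of a call. The cause was not tested. Slc25a24 and Slc25a29 passed in all 15. With the replicate number as a block, 5 carriers passed higher instead of 2, Slc25a13, Slc25a36 and Slc25a37 being added, and all 8 carriers that passed without it passed. Called lower were 1 instead of 3 on log2(TPM + 1) and 2 on log2(TPM + 0.1), without a composition factor, and without Rpl22+/+ replicate 2, Rpl22-/- replicate 1 or Rpl22-/- replicate 3. Without a composition factor the all-gene median log2 fold change was 0.19 instead of 0.07 (a shift of 0.13 before rounding, and of 0.12 on log2(TPM + 0.1)). Carriers then passed as 3 higher and 5 lower instead of 2 and 6, and 61.5% instead of 49.8% of all passed genes were higher. On the TPM scales the carriers passed as 3 higher and 6 lower, with 60.1% and 60.4% of all passed genes higher. Partner genes passed higher were 10, but 21 without a composition factor, 21 on log2(TPM + 1) and 20 on log2(TPM + 0.1), and passed lower were 9, but 14 on both TPM scales.

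With each library left out, carriers passed higher ranged from 0 (without Rpl22+/+ replicate 3) to 3 and passed lower from 2 (without Rpl22-/- replicate 1 or 3) to 7. Partner genes passed higher ranged from 5 (without Rpl22+/+ replicate 1 or 3) to 24 (without Rpl22+/+ replicate 2) and passed lower from 6 (without Rpl22-/- replicate 1 or 3) to 15 (without Rpl22+/+ replicate 2). Of the 39 tested carriers, 14 turned sign in some alternative, with an adjusted p of 0.376 or more where they did, and 3 of these are among the carriers named in full. With a library left out, Slc25a33 ranged from -0.05 (Rpl22-/- replicate 3; -0.04 without Rpl22+/+ replicate 3) to 0.40, Slc25a39 from -0.29 to 0.14 (Rpl22+/+ replicate 2) and Slc25a40 from -0.23 (Rpl22+/+ replicate 2; -0.12 without Rpl22-/- replicate 1) to 0.24. Slc25a39 was at 0.02 without a composition factor, and Slc25a40 at -0.22 with protein-coding transcripts only. Of the 7 carriers with too few reads, 6 had a value without the filter on low counts and 0 passed edgeR's test (1, Slc25a48, at an unadjusted p of 0.0437). Slc25a21 was then at 1.64 (adjusted p = 0.249), and at 1.22 to 1.99 in the 4 fits with a library left out that kept it (adjusted p of 0.127 to 0.405).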
